A study of Mus musculus with 6 samples.

Results

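Collagens and the other matrix genes that fibroblasts secrete were followed in tumours in which an overexpressed microRNA had been turned off. The genes were chosen by name, with earlier results of these data known. The names were those of the collagen chains, Fn1, Postn, Sparc, Tnc, Dcn, Lum, Bgn, Fap, Acta2 and the fibulin, fibrillin, thrombospondin and Lox families. This choice took 66 of the 29209 entries in the authors' deposited table. They are 41 collagen chains, 23 other matrix and fibroblast genes, and 2 genes that share a name pattern and nothing else: Col4a3bp, which encodes a ceramide transfer protein, and Loxhd1, a hair cell gene. Of the collagens 11 are fibrillar, 6 are chains of type IV, the collagen of basement membranes, and 24 belong to other families.

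The DOX group was 3 samples of subcutaneous tumour from NCr nude mice, which lack a thymus, fed doxycycline (DOX) at 2.3 mg per kg of grain chow over the 16 hours before harvest. The no DOX group was 3 samples of the same kind from mice given none. Tumours of both groups grew from injected splenic cells of diseased mir-155LSLtTA mice, which overexpress miR-155 until doxycycline represses the transgene. Without DOX-treated tumours that lack the transgene, effects of the drug and of miR-155 loss cannot be told apart. Ages of the mice are not given in the sources used here, nor whether the fibroblasts came from the host or from the injected spleen cells. The tissue was dispersed to single cells and red cells were lysed before RNA was taken, so the RNA is that of the released cells in bulk. Fewer cells of a type and less RNA per cell cannot be told apart in such samples.

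The authors' deposited table holds 1 fold and its p-values per gene, with no value per sample, no level and no depth. The table does not say which group is the numerator. They are taken here with DOX as the numerator. Had the authors divided no DOX by DOX, each direction given would be its opposite. Where an error is printed beside a log2 fold it is an implied error, the absolute log2 fold divided by the normal deviate matching its unadjusted p. It approximates a standard error over 3 against 3 samples and is not the authors' own. Genes were called at an adjusted p under 0.05. Whether each sample is its own animal is not in the labels, so the p-values describe variation among the 6 samples alone, possibly technical.

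Collagens are trimers of chains built from a Gly-X-Y repeat, a glycine and then a pair of other residues, which winds into the collagen helix. Fibrillar collagens (types I, II, III, V, XI, XXIV and XXVII) assemble into the tensile fibrils of connective tissue, which lysyl oxidases cross-link and small proteoglycans space. Type IV chains carry interruptions in the repeat and form the flexible sheet under endothelium and epithelium. In tumours these genes are read mainly as products of fibroblasts, pericytes and endothelium, while most blood cells make little of them.

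The coding exons below show how the fibrillar genes are built, and how type IV differs. Capitals mark glycine codons, and each is whole-codon coding sequence from the GENCODE M21 annotation of mouse build GRCm38, not the build of the deposited table. The first 4 are exons of 54 bases with an unbroken repeat in 2 fibrillar genes that rose (Col5a2, Col27a1) and in 2 abundant fibrillar chains of connective tissue (Col1a1, Col3a1). The last is an exon of Col4a1 in which the register of glycines breaks.
Col5a2, exon 6, chr1:45434892-45434945, minus strand: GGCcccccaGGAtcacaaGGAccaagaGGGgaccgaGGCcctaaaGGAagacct
Col27a1, exon 4, chr4:63231792-63231845, plus strand: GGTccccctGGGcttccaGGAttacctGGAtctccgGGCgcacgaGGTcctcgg
Col1a1, exon 8, chr11:94939904-94939957, plus strand: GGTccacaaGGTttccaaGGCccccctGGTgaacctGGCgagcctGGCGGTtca
Col3a1, exon 6, chr1:45325360-45325413, plus strand: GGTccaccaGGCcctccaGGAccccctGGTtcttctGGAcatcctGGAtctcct
Col4a1, exon 9, chr8:11244486-11244569, minus strand: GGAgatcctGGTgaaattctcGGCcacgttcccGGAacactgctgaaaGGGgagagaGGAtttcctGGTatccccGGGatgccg

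Over whole genes the same contrast held. The 11 fibrillar genes had between 21 and 33 coding exons of 54 bases, the 6 type IV genes between 1 and 3, and the 24 other collagen genes between 0 and 28. The longest unbroken Gly-X-Y run had a median of 338 triplets in fibrillar chains, 43.5 in type IV chains and 53.5 in the others. Type IV chains nonetheless held more triplets in all, a median of 429 against 357 in fibrillar chains, spread over 23 to 27 segments against 2 to 5. Col27a1 and Col24a1 stand apart among the fibrillar chains, with runs of 217 and 216 triplets.

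**Figure D1:**
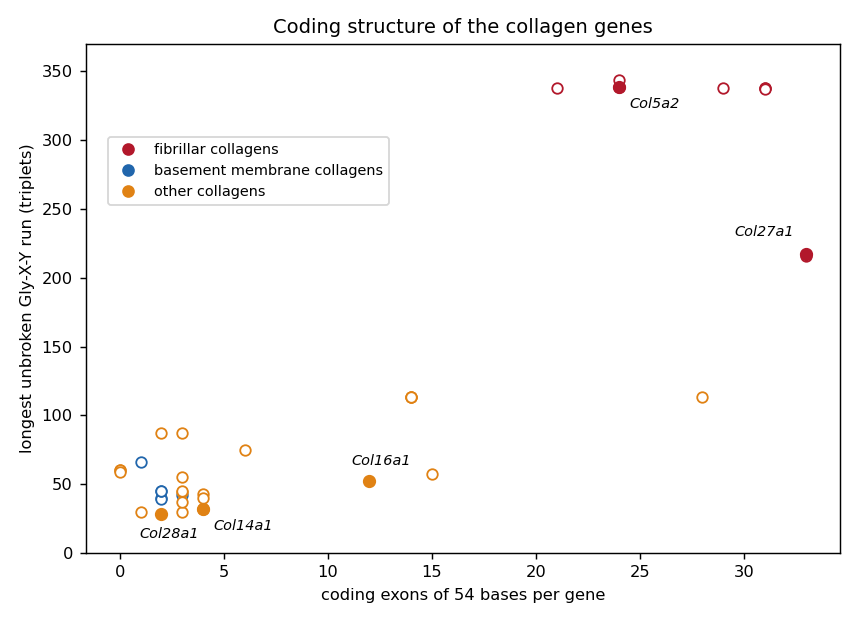
Coding exons of 54 bases per collagen gene (x axis) against the longest unbroken Gly-X-Y run in triplets (y axis), with 1 point per gene and filled points for genes with an adjusted p under 0.05 (the open point of Col24a1 lies under that of Col27a1). Fibrillar genes sit at the upper right with runs of 216 to 344 triplets. The 5 genes that passed were 2 of 10 tested fibrillar, 3 of 20 other and 0 of 4 type IV genes. Of all tested genes 5.72% were called higher.

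Matrix genes as a set lay on the DOX side of the comparison, and 10 of them passed the threshold, all higher. Leaving the 2 non-matrix genes aside, 57 of 64 had a p-value in the authors' deposited table and 10 (17.5%) were called higher, against 5.72% of all 18543 tested genes. None was called lower by the authors' DESeq test, against 5.61% of all tested genes, and at an unadjusted p under 0.05 20 were higher and 0 lower, against 11.9% and 10.4% of all. Of the 51 with a finite fold, 49 had one above 1 in the authors' deposited table, against 55.9% of all tested genes with a finite fold. Their median log2 fold was 2.17 and that of all tested genes 0.17. The genes were measured in the same samples and are not independent observations.

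Of the other tested members, 5 had a ratio listed as Inf and 1 a ratio listed as 0 in the authors' deposited table, so no fold is printed for them. Those at Inf were Col11a1, Col8a2, Col19a1, Col4a5 and Col6a5, with adjusted p-values of at least 0.584, and Col9a2 was at 0 with one of 1.0. No p was given for Col2a1, Col4a3, Col4a6, Col9a1, Col13a1, Col22a1 and Col25a1, nor for Loxhd1. Several of these are chains of cartilage, kidney or neural tissue.

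**Figure D2:**
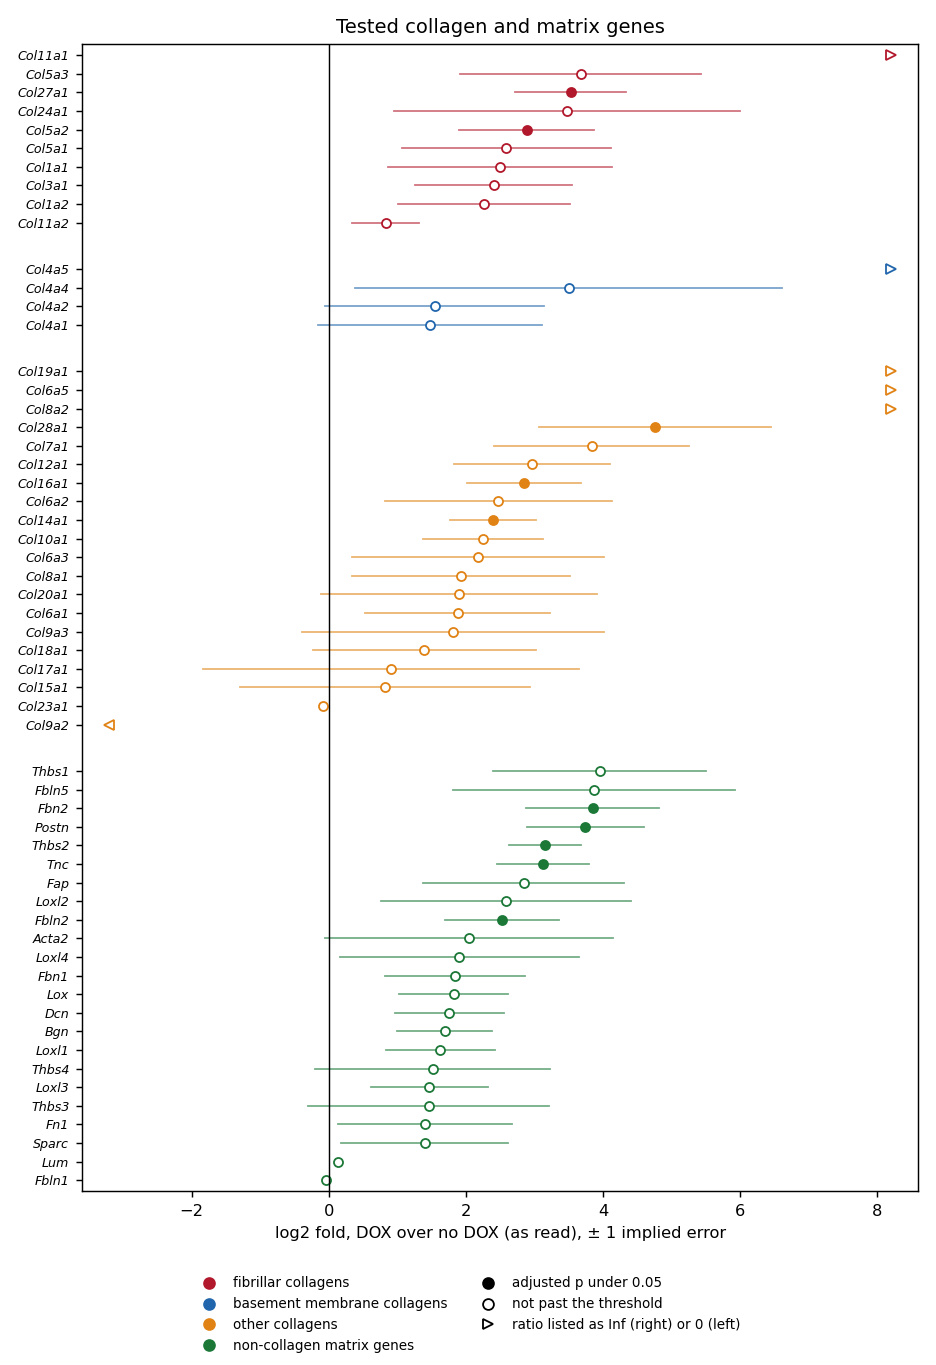
Log2 fold (x axis, DOX over no DOX as read) of each tested collagen and matrix gene, grouped by class, with bars of 1 implied error and triangles for ratios listed as Inf or 0. Filled points have an adjusted p under 0.05, and nearly all points lie right of 0, with 2 finite folds (Fbln1 and Col23a1) just left of it.

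Fibrillar collagens had the highest median of the collagen classes, 2.59 on the log2 scale over 9 finite folds, against 1.55 over 3 in type IV and 2.05 over 16 in the other collagens. With ratios of Inf ranked highest and of 0 lowest these medians were 2.74, 2.52 and 2.21, so most of the gap between fibrillar and type IV genes was gone. Calls numbered 2 of 10 tested fibrillar genes, 0 of 4 type IV genes and 3 of 20 other collagen genes. Of all tested genes 5.72% were called higher, a share at which 0 calls in so small a class is no sign of a difference. With so few genes, and with errors that mostly exceed the gaps between these medians, the classes were not shown to differ. All 9 finite fibrillar folds and all 3 of type IV were above 1 in the authors' deposited table.

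Among fibrillar genes, Col27a1 and Col5a2 rose. Col27a1 encodes a fibrillar chain best known from cartilage, and its fold was 11.5 (log2 3.53, implied error 0.81, adjusted p = 0.000512) in the authors' deposited table. A separate entry, mKIAA1870, carries a cDNA name of the same gene and was not taken by the name rule. Its log2 fold was 5.27, with a -log10 unadjusted p of 3.63 in the authors' DESeq test. Col5a2 encodes a chain of type V collagen, which sits inside type I fibrils and limits their width. Its fold was 7.39 (log2 2.89, implied error 0.99, adjusted p = 0.0351) in the authors' deposited table. The other type V chains had wider errors, with a larger log2 fold of 3.68 ± 1.76 for Col5a3 (adjusted p = 0.182) and a smaller one of 2.59 ± 1.53 for Col5a1 (adjusted p = 0.325), in the authors' deposited table with implied errors.

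The main chains of connective tissue, types I and III, did not pass. Col1a1 had a fold of 5.65 with an adjusted p of 0.406 in the authors' deposited table. Its partner in the type I trimer, Col1a2, had a fold of 4.78 with an adjusted p of 0.285 in the authors' deposited table. Col3a1, which forms fibrils with type I in skin and vessels, had a fold of 5.31 (adjusted p = 0.179) in the authors' deposited table. Implied errors of these 3 on the log2 scale ran from 1.15 to 1.63, and the implied 95% range reached from -0.71 to 5.70 for Col1a1 and from 0.16 to 4.65 for Col3a1. With errors of this size, a log2 fold like that of Col5a2 would not reach the adjusted threshold in the type I genes. Col24a1 (log2 3.47 ± 2.52) and Col11a2 (0.83 ± 0.49) were the remaining finite fibrillar folds, from the authors' deposited table with implied errors, and both missed the threshold.

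No type IV collagen passed. Col4a1 and Col4a2 are transcribed from a shared promoter and form the common basement membrane trimer, and their folds lay close together. Col4a1 had a fold of 2.78 (log2 1.47, implied error 1.64, adjusted p = 0.746) in the authors' deposited table. For Col4a2 the fold was 2.92 (log2 1.55, implied error 1.60, adjusted p = 0.710) in the authors' deposited table. Each fold was smaller than its error. Col4a4, a chain best known from kidney and inner ear, had a log2 fold of 3.50 with an implied error of 3.11 (adjusted p = 0.624) in the authors' deposited table. At an unadjusted p under 0.05 the count for type IV was still 0, against 11.9% of all tested genes higher and 10.4% lower.

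Among other collagens, a pair of fibril-associated (FACIT) chains and Col28a1 rose. Col14a1, whose product binds fibril surfaces in skin and tendon, had a fold of 5.27 (log2 2.40, implied error 0.63, adjusted p = 0.00330) in the authors' deposited table. Col16a1 encodes a FACIT found near fibrils and basement membranes, and its fold was 7.18 (log2 2.84, implied error 0.83, adjusted p = 0.0102) in the authors' deposited table. Col12a1, the close relative of Col14a1, had a log2 fold of 2.96 with an adjusted p of 0.0692 in the authors' deposited table. Of 7 tested FACIT genes 2 were called higher, against 5.72% of all tested genes. The 5 finite folds ran from 1.82 to 2.96 on the log2 scale.

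Col28a1 had the largest finite log2 fold of all the members, 4.76, and only just passed (adjusted p = 0.0445) in the authors' deposited table. Its implied error of 1.69 makes it the least precise of the called members. The next gene by adjusted p, Col7a1 of the anchoring fibrils under skin, lay just outside with a log2 fold of 3.83 (adjusted p = 0.0589) in the authors' deposited table. Col10a1, a chain of growth plate cartilage, followed with 2.25 (adjusted p = 0.0767) in the authors' deposited table. Among type VI chains, which build beaded microfibrils around cells, Col6a1 had a log2 fold of 1.88, Col6a2 of 2.47 and Col6a3 of 2.17 in the authors' deposited table. Those 3 lay close together, and their adjusted p-values ran from 0.424 to 0.587. The endostatin-bearing chains Col15a1 (0.82) and Col18a1 (1.39) and the transmembrane chains Col17a1 (0.91) and Col23a1 (-0.09) had lower log2 folds in the authors' deposited table, none past the threshold.

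Matricellular proteins, secreted factors that signal in the matrix more than they bear load, held the strongest calls. Thbs2, which encodes thrombospondin-2, an inhibitor of vessel growth made by fibroblasts, had a fold of 8.90 (log2 3.15, implied error 0.53, adjusted p = 5.1e-07) in the authors' deposited table. Tnc, the gene of tenascin-C, a glycoprotein of wound and tumour stroma, had a fold of 8.73 (log2 3.13, implied error 0.67, adjusted p = 0.000196) in the authors' deposited table. Postn encodes periostin, which binds collagen and integrins in remodelling tissue, and its fold was 13.4 (log2 3.74, implied error 0.85, adjusted p = 0.000499) in the authors' deposited table. These 3 were the members with the smallest adjusted p-values, ahead of any collagen.

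Close relatives of these genes did not all follow at the threshold. Thbs1 had a larger log2 fold than Thbs2, 3.95, with an implied error of 1.55 and an adjusted p of 0.0795 in the authors' deposited table. Thbs3 had a log2 fold of 1.45 (adjusted p = 0.784) and Thbs4 one of 1.51 (adjusted p = 0.756) in the authors' deposited table. Fn1, the gene of fibronectin, an adhesive scaffold that many cell types make, had a fold of 2.64 (log2 1.40, implied error 1.27, adjusted p = 0.634) in the authors' deposited table. Sparc, a collagen-binding glycoprotein gene of fibroblasts and endothelium, had nearly the same fold, 2.63 (log2 1.40, implied error 1.22, adjusted p = 0.608), in the authors' deposited table. All 8 genes of this class had a fold above 1, and 3 were called higher, against 5.72% of all tested genes.

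**Figure D3:**
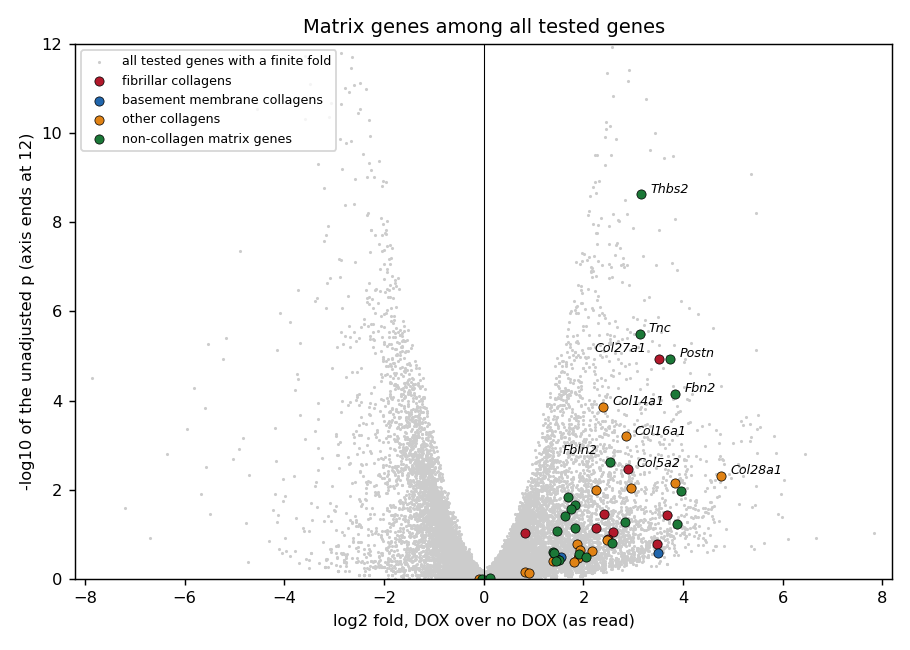
Log2 fold (x axis, DOX over no DOX as read) against -log10 of the unadjusted p (y axis, ending at 12) for all tested genes with a finite fold (grey) and for the matrix genes by class (colours), with called matrix genes named. Thbs2 stands highest among the matrix genes at a log2 fold of 3.15, and most of the others form a band of large folds with weak p-values.

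Elastic fibre genes gave 2 calls among 5, both higher, against 5.72% of all tested genes. Fbn2, the gene of fibrillin-2, a microfibril protein best known from developing tissue, had a fold of 14.4 (log2 3.85, implied error 0.97, adjusted p = 0.00204) in the authors' deposited table. Fbln2, whose product fibulin-2 links fibrillin and basement membrane, had a fold of 5.77 (log2 2.53, implied error 0.83, adjusted p = 0.0268) in the authors' deposited table. Fbn1, the fibrillin gene of adult tissue, had a log2 fold of 1.84 (adjusted p = 0.289) in the authors' deposited table. Fbln5, needed for elastic fibre assembly, stood at 3.87 with an implied error of 2.06 (adjusted p = 0.253) in the authors' deposited table. Fbln1 was at -0.04 with an adjusted p of 1.0 in the authors' deposited table, one of the 2 members with a finite fold below 1.

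Small leucine-rich proteoglycans, which bind fibrils and set their spacing, held no call in 3 by the authors' DESeq test. At an unadjusted p under 0.05 2 were higher. The shares of all tested genes were 5.72% called higher and 11.9% higher at that unadjusted p. Bgn (biglycan) had a log2 fold of 1.69 (implied error 0.69, adjusted p = 0.0975) and Dcn (decorin) one of 1.76 (implied error 0.79, adjusted p = 0.147) in the authors' deposited table. Lum (lumican) was at 0.13 with an adjusted p of 1.0 in the authors' deposited table. Lum thus sat near 0 while the 2 others had folds over 3 in the same samples, and the difference between them was not tested.

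None of the 5 lysyl oxidases, the enzymes that cross-link collagen and elastin, passed in the authors' DESeq test, against 5.72% of all tested genes called higher. At an unadjusted p under 0.05 2 were higher, against 11.9% of all. Lox, the founding member, had a fold of 3.54 (log2 1.82, implied error 0.79, adjusted p = 0.129) in the authors' deposited table. Loxl1, which acts on elastin, had a log2 fold of 1.63 (adjusted p = 0.194) in the authors' deposited table. The other 3 ran from 1.47 for Loxl3 to 2.58 for Loxl2 on the log2 scale, with adjusted p-values from 0.319 to 0.640. Fap, the gene of a surface protease of activated fibroblasts, had a fold of 7.16 (log2 2.84, implied error 1.47, adjusted p = 0.235) in the authors' deposited table. Acta2, the smooth muscle actin gene that marks myofibroblasts and pericytes, had a fold of 4.12 (log2 2.04, implied error 2.10, adjusted p = 0.707) in the authors' deposited table.

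Most matrix genes had wide errors. Their median implied error was 1.45 on the log2 scale over 48 genes, against 0.61 over 13930 of all tested genes. The 41 matrix genes with a finite fold that were not called still had a median log2 fold of 1.88. For the 10 called genes the median log2 fold was 3.14 and the median implied error 0.83. Col4a3bp, the ceramide transfer gene, passed with a smaller log2 fold of 1.74 and an implied error of 0.44 (adjusted p = 0.00217) in the authors' deposited table, and it is no matrix gene.

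Genes that make, cut and sense collagen were listed alongside. Of 22 tested genes of collagen synthesis and folding 0 rose and 1 fell in the authors' DESeq test, against 5.72% and 5.61% of all tested genes, with a median log2 fold of 0.60. At an unadjusted p under 0.05 the list had 3 higher and 2 lower, against 11.9% and 10.4% of all tested genes. The gene that fell was P4hb, a subunit of collagen prolyl hydroxylase and a general disulfide isomerase of the endoplasmic reticulum. It had a log2 fold of -0.99 (adjusted p = 0.0245) in the authors' deposited table. Ppib, a prolyl isomerase of collagen folding, had -0.97 (adjusted p = 0.0611) and Serpinh1, the collagen-specific chaperone, 1.58 (adjusted p = 0.508) in the authors' deposited table. The procollagen processing genes Pcolce (2.14) and Adamts2 (2.58) lay with the collagens in log2 fold in the authors' deposited table, at adjusted p-values of 0.105 and 0.211.

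Of 18 tested matrix metalloproteinases, inhibitors and related genes 4 rose and 0 fell in the authors' DESeq test, against 5.72% and 5.61% of all tested genes, with a median of 2.06. At an unadjusted p under 0.05 the list had 5 higher and 0 lower, against 11.9% and 10.4% of all tested genes. Ctsk, a collagen-cutting cathepsin of osteoclasts, macrophages and fibroblasts, had a log2 fold of 3.38 (adjusted p = 0.000251) in the authors' deposited table. Mrc2, an uptake receptor for collagen fragments, had 2.42 (adjusted p = 0.00572) in the authors' deposited table. Mmp9 (2.17, adjusted p = 0.0252) and Mmp2 (2.06, adjusted p = 0.0264), the gelatinases, complete the calls of this list in the authors' deposited table. The list does not hold every metalloproteinase gene. Mmp12, which it left out, had a log2 fold of 1.94 and a -log10 unadjusted p of 4.98 in the authors' DESeq test. Mmp9 and Ctsk are also known as genes of myeloid cells, and which cells supplied them was not tested.

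No gene passed among 8 tested collagen receptors (median 2.11), 36 other interstitial matrix genes (1.89) and 18 other basement membrane genes (0.81). The shares of all tested genes were 5.72% called higher and 5.61% called lower. Taking unadjusted p-values under 0.05 from the authors' deposited table, 4 of the receptors were higher and 1 lower. The interstitial genes had 8 and 0, the basement membrane genes 2 and 0, and all tested genes 11.9% and 10.4%. The interstitial genes nearest the threshold were the small proteoglycans Ogn (3.94, adjusted p = 0.0527), Omd (4.01, adjusted p = 0.0574) and Podn (3.16, adjusted p = 0.0716) in the authors' deposited table. Smaller median folds thus stood beside type IV collagen in the basement membrane list than beside fibrillar collagen in the interstitial list, and this difference was not tested.

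**Figure D4:**
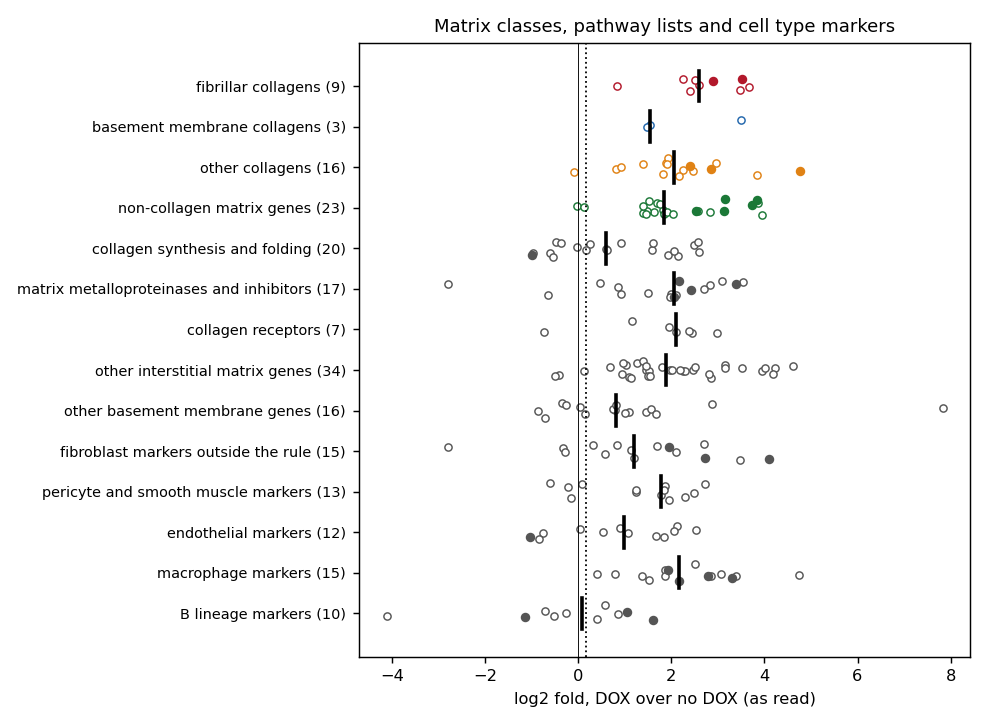
Log2 fold (x axis, DOX over no DOX as read) of each gene with a finite fold in the matrix classes, the pathway lists and the cell type marker lists, with filled points for an adjusted p under 0.05, black bars for list medians and a dotted line for the median of all tested genes (0.17). Numbers in brackets count the finite folds. Fibrillar collagens have a median of 2.59, macrophage markers one of 2.16 and B lineage markers one of 0.07.

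Markers of cell types that could supply these transcripts were read from the same comparison, and the lists differed in how many genes passed. Over all tested genes 5.72% were called higher and 5.61% lower, or 11.9% and 10.4% at an unadjusted p under 0.05. Fibroblast markers that the name rule did not take had 3 of 16 tested genes called higher and a median of 1.20. At an unadjusted p under 0.05 they had 3 higher and 0 lower. Prrx1 (4.10), Cxcl12 (2.72) and the growth factor receptor gene Pdgfra (1.95) rose in the authors' deposited table, while Pdgfrb had a log2 fold of 0.32 and Thy1 one of -2.80, neither past the threshold. Of 13 pericyte and smooth muscle markers 0 passed (0 also at an unadjusted p under 0.05, with a median of 1.77). Of 12 endothelial markers 0 rose and 1, Eng, fell (1 higher and 1 lower at an unadjusted p under 0.05; median 0.98). The lists do not hold every stromal marker. Cd248, a gene of pericytes and fibroblasts in none of them, had a log2 fold of -3.58 and a -log10 unadjusted p of 11.7 in the authors' DESeq test. Macrophage markers had all 15 folds above 1, against 55.9% of all tested genes with a finite fold. They had 4 calls (10 higher and 0 lower at an unadjusted p under 0.05) and a median of 2.16. The matrix genes had a median of 2.17. B lineage markers had 2 calls higher and 1 lower among 10 (2 and 3 at an unadjusted p under 0.05) and a median of 0.07. Of 9 skeletal muscle markers 0 passed (1 lower at an unadjusted p under 0.05; median 1.54), of 2 adipocyte markers 1, Lpl, rose, and of 2 skin and 3 cartilage and bone markers 0 passed (0 also at an unadjusted p under 0.05). The skin keratin genes Krt5 and Krt1, the cartilage gene Acan and the bone gene Sp7 had no p. The table gives no levels, so summed marker levels per group could not be set beside the folds, and the part of these cells in the matrix result was not tested.

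Transcript length also went with direction in these data. The 57 tested matrix genes had a median longest transcript of 5348 bases, against 3111.5 over 11798 tested genes with a protein-coding match in GENCODE M21. Among all matched genes with a transcript of at least 5000 bases 11.7% were called higher, and among shorter ones 3.13%. Long matrix genes were called in 7 of 34 cases (20.6%) and shorter ones in 3 of 23 (13.0%). Median log2 folds were 2.50 in the long and 1.82 in the shorter matrix genes, against 0.55 and -0.12 in all matched genes. The part of length in the matrix result was not tested.

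MicroRNA sites in the 3' untranslated regions were compared for 2 reasons: miR-155 was the microRNA withdrawn, and miR-29 is known for repressing collagens. RefSeq gives these mature sequences (build GRCm38.p6), with the seed at bases 2 to 8 in capitals, and the 3 miR-29 forms share a seed.
mmu-miR-155-5p, chr16:84714143-84714165, plus strand: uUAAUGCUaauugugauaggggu
mmu-miR-29a-3p, chr6:31062673-31062694, minus strand: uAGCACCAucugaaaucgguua
mmu-miR-29b-3p, chr1:195037091-195037113, plus strand: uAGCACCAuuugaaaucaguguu
mmu-miR-29c-3p, chr1:195037600-195037621, plus strand: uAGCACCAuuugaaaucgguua

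A site was a match to bases 2 to 8 (AGCATTA for miR-155, TGGTGCT for miR-29) or to bases 2 to 7 followed by A (GCATTAA for miR-155, GGTGCTA for miR-29), on the transcript strand of the longest annotated 3' untranslated region. Overlapping forms counted once. A miR-155 site was present in 9 of 64 matrix genes, and in 7 of the 57 tested (12.3%), against 13.2% of all tested genes with a transcript and 16.9% of those with a 3' untranslated region of at least 500 bases. Of the 10 genes that rose, Col5a2 alone held one, shown first below with the site in capitals. Fbln5 and Col7a1 also held one and did not pass. Sites for miR-29 were present in 33 of 64 matrix genes, and in 27 of the 57 tested (47.4%), against 18.6% and 23.7% of the same backgrounds. By class the 33 were 10 of 11 fibrillar genes, 6 of 6 type IV genes, 10 of 24 other collagens and 7 of 23 non-collagen genes. The lines after the first 3 show miR-29 sites in fibrillar and type IV genes that had folds above 1.
Col5a2, miR-155 site: acaagaagtccAGCATTAtaatgatcact
Fbln5, miR-155 site: agaggcaaaaaAGCATTAccacctacatc
Col7a1, miR-155 site: gaggggacgggGCATTAAagctgctgttt
Col5a2, miR-29 site: tcttttaatgaTGGTGCTAaaattatttc
Col27a1, miR-29 site: tgtgaaatcgcTGGTGCTcacaattgtct
Col1a1, miR-29 site: gaaggaatttcTGGTGCTAtagaagctga
Col3a1, miR-29 site: aaatgtctcaaTGGTGCTAtaataaataa
Col4a1, miR-29 site: ccgtcacaacaTGGTGCTActcccccccc

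Folds were compared by seed match without a test. The 7 tested matrix genes with a miR-155 site had 1 call and a median log2 fold of 3.19 over 6 finite folds, against 9 calls and 2.04 over 45 among the 50 without one. Those with a miR-29 site had 4 calls in 27 and a median of 2.47, against 6 calls in 30 and 1.79 without one. Among all tested genes with a transcript the medians were 0.39 with a miR-155 site and -0.04 without, and 0.14 with a miR-29 site and -0.01 without. Of these genes 140 of 1555 with a miR-155 site were called higher, and 440 of 10243 without one. For miR-29 the calls higher were 144 of 2192 with a site and 436 of 9606 without. A match is a string in a sequence and was not shown to bind, and neither microRNA was measured here.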

How the data were processed

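RSEM and DESeq are named, with mouse build mm9 and no versions, per the submitters' processing notes. The deposited file is the authors' comparison of the 2 groups, with a linear fold ratio, a p-value and an adjusted p-value per gene, per the file headers. Depth per sample is unknown, and no test was refitted. The deposited ratio was put on a log2 scale. Of 29209 entries 18543 have an adjusted p, 15784 of them a finite fold, 2180 Inf and 579 a ratio of 0. A Benjamini-Hochberg adjustment recomputed over those 18543 differed from the authors' adjusted p by at most 2.09e-06.

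All 66 entries matched a GENCODE M21 protein-coding transcript (GRCm38) by symbol. The longest transcript gave length, the longest coding sequence gave exons and Gly-X-Y segments of at least 3 triplets, and the longest 3' untranslated region gave seed matches. Implied errors were computed for p up to 0.9. Named genes were all called members, the 4 smallest adjusted p-values per class, 15 stroma genes, and up to 4 called genes in each other list; further genes named were chosen after their values were seen. The members and lists were chosen with earlier results of these data known. Counting procedures were tested on simulated data. Python 3.11.15, pandas 2.3.3 and scipy 1.17.1 were used.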

Additional observations from a re-analysis of the deposited data

How the results depend on the processing

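No paired analysis was possible because the deposited table holds no value per sample, and for the same reason no replicate could be left out. All 11 called members, Col4a3bp included, stayed called at an adjusted p under 0.1, at an unadjusted p under 0.05 and among finite folds. The shares of all tested genes were 5.72% called higher and 5.61% lower, or 11.9% and 10.4% at an unadjusted p under 0.05. The 11 calls, of 58 tested members, became 7 at an adjusted p under 0.01. At an unadjusted p under 0.05 they numbered 21, and under Bonferroni 1 (Thbs2). Fibrillar calls, 2 of 10 tested genes as reported, became 1, 4 and 0 under the same 3 settings. Those of other collagens, 3 of 20 as reported, became 1, 6 and 0, and 6 at an adjusted p under 0.1. Non-collagen calls, 5 of 23 as reported, became 10 at an unadjusted p under 0.05 and 1 under Bonferroni. In the 5 pathway lists 4 of 102 tested genes (3.92%) rose. These 4 rises became 8 at an adjusted p under 0.1, 2 under 0.01, 22 unadjusted and 0 under Bonferroni. The 1 fall became 2, 0, 3 and 0. These shifts follow from the thresholds themselves. Type IV calls and falls among members stayed at 0 in every setting run, in the authors' DESeq test. With ratios of Inf ranked highest and of 0 lowest, class medians were 2.74 for fibrillar, 2.52 for type IV and 2.21 for other collagens, which narrowed the gap between fibrillar and type IV. Counting types XV and XVIII as basement membrane gave 1.47 for that class and 2.21 for the others.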

Other observations

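A collagen gene that the name rule does not take is Emid2, whose product is collagen type XXVI. Its log2 fold in the authors' deposited table was -1.91 with an implied error of 1.66 (adjusted p = 0.608). Emid2 thus lay on the other side of 0 from nearly all the collagens and did not pass the threshold. Emid1, which shares its name stem and is in none of the lists, was far lower. Its log2 fold was -4.67, with a -log10 unadjusted p of 21.7 in the authors' DESeq test.

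In the authors' deposited table the calcium-binding matrix gene Smoc1 had a log2 fold of 7.83 at an adjusted p of 0.332.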
